A study of Mus musculus with 9 samples.

Results

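Imprinted genes are read mainly from 1 of the 2 parental copies, and many of them set how far tissues grow before and after birth. In skeletal muscle several are high in the fetus, fall as the muscle matures, and come back on when fibres are rebuilt after injury. Here 10 of them were followed in regenerating mouse muscle, chosen by name from the 54532 Ensembl genes of the count table. The list was drawn up with earlier results of these data known. Contrasts of the members with all genes below therefore describe the list and do not test it. They were H19, Dlk1, Meg3, Rian, Mirg, Peg3, Mest, Cdkn1c, Plagl1 and Grb10, and all 10 were found by their identifiers and had counts in every library.

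The study asked whether METRNL, a secreted protein, changes muscle regeneration in old mice. C57BL/6J mice of 4 months (young) or 24 months (old) had the tibialis anterior muscle injured with barium chloride, which destroys fibres and starts their renewal. Each injured muscle then received 3 injections, of PBS in the young PBS and old PBS groups and of recombinant METRNL in the old rMETRNL group. Each group had 3 libraries, and there was no uninjured muscle and no young muscle given rMETRNL, so the level before injury is not known from these libraries. The study's text describes whole muscle at day 8, whereas the labels describe a cell suspension and the series text day 4, so the day behind these values is uncertain. The labels do not say that libraries of a group came from separate animals, so that p-values measure the spread between these libraries, which may be technical. In bulk RNA, fewer cells of a type and less RNA per cell cannot be told apart.

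The libraries held between 16238700 and 22522560 counts, and a count of 3 stood for 0.131 to 0.202 counts scaled to 1000000 per library (CPM), below the level of every member in every library. The old PBS libraries did not resemble each other. Genes of new fibres summed to 5227 CPM in old PBS 3 but to 1458 and 731 CPM in old PBS 2 and 4, against 1738 to 2452 CPM in the other 6 libraries. All 3 old PBS libraries also held RNA of genes that mark other organs. The summed level of 12 brain markers was 65.2 to 226 CPM in old PBS, 42.6 to 52.4 CPM in young PBS and 57.7 to 78.6 CPM in old rMETRNL. Outside old PBS most of this sum was Aqp4, at 37.0 to 45.7 CPM in young PBS and 49.4 to 70.2 CPM in old rMETRNL. In old PBS 2, 3 and 4 Aqp4 was 50.6, 9.49 and 54.3 CPM. Of the 12 markers, Mobp and Snap25 were at 0 in all 6 libraries outside old PBS. In old PBS 2, 3 and 4 Mobp had 470, 262 and 665 counts. The 8 liver markers summed to 13.3 to 86.3 CPM in old PBS and to at most 6.71 CPM elsewhere. The part of this RNA in the results below was not tested.

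Of the 10 members, 4 lie in 1 stretch of 297 kb on chromosome 12 (coordinates of the GRCm38 annotation, since the count table holds none and the labels name mm9). Dlk1 (chr12:109452823-109463336, plus strand) codes for a membrane protein related to Notch ligands and is read from the paternal copy. Meg3 (chr12:109541001-109571726), Rian (chr12:109603940-109661716) and Mirg (chr12:109729764-109749460) follow on the same strand as non-coding RNAs of the maternal copy. H19 (chr7:142575529-142578143, minus strand) is a maternal non-coding RNA and the neighbour of the growth factor gene Igf2. Cdkn1c (chr7:143458339-143461050, minus strand) codes for the cell cycle inhibitor p57 and lies on the same chromosome.

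Peg3 (chr7:6703892-6730431, minus strand) codes for a zinc finger protein that marks several kinds of progenitor cell. Mest (chr6:30723547-30748465, plus strand) codes for a membrane protein of the hydrolase family. Plagl1 (chr10:13060504-13131694, plus strand) codes for a zinc finger transcription factor. Grb10 (chr11:11930508-12038683, minus strand) codes for an adaptor that restrains signals of the insulin and IGF receptors.

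The non-coding members are also hosts of small RNAs. By position, 20 miRNA hairpins with 39 mature sequences of the RefSeq table (GRCm38.p6) lay inside 5 members, 14 of the hairpins inside Mirg. The libraries counted long RNA, and the mature miRNAs themselves were not measured. The rows of the hairpins inside H19 and Meg3 held 0 counts over all 9 libraries, those inside Rian 72, those inside Mirg 141 and that inside Mest 19. The sequences below are shown because they lie inside the spans of measured host genes, with the seed (bases 2 to 8) in capitals. Exons and introns were not told apart, so that the counted transcripts need not carry them. The first pair comes from H19, the second from Meg3, the third from Mest. The last pair, from Mirg, is the only pair of the 39 with a shared seed.
miR-675-5p (chr7:142577112-142577133, minus strand): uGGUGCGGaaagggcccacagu
miR-675-3p (chr7:142577078-142577099, minus strand): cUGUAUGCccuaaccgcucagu
miR-770-5p (chr12:109563710-109563731, plus strand): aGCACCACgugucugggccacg
miR-770-3p (chr12:109563744-109563765, plus strand): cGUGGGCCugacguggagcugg
miR-335-5p (chr6:30741314-30741336, plus strand): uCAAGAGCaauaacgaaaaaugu
miR-335-3p (chr6:30741354-30741375, plus strand): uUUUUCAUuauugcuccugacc
miR-453 (chr12:109735669-109735692, plus strand): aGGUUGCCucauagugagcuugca
miR-496a-5p (chr12:109739132-109739152, plus strand): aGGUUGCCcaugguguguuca

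RefSeq promoter windows (GRCm38.p6, 250 bases before to 50 after a start site) were found for 8 of the 10 members, 12 windows in all. The windows of Dlk1 and of the first start of Meg3 are shown because these neighbours are read from opposite parental copies and their ratio is followed below. A window of Mest is shown as the only 1 of the 12 with CAGCTG or CACCTG, forms of the CANNTG box that MyoD family factors bind. Capitals mark CANNTG, and in Meg3 the 2 overlapping matches to TATAAA, on either strand.
Dlk1 (chr12:109452573-109452872, plus strand): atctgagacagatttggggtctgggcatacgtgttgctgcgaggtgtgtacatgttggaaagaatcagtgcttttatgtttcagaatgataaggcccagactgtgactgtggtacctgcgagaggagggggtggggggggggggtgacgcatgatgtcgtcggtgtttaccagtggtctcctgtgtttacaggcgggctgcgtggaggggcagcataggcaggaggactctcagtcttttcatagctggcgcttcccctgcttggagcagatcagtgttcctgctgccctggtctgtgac
Meg3 (chr12:109540746-109541045, plus strand): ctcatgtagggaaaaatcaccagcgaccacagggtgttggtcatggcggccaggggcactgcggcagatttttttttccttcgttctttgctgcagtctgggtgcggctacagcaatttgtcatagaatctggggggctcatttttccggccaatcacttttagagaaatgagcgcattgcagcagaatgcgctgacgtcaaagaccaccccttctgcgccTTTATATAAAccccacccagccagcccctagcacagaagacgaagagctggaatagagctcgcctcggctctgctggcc
Mest (chr6:30733256-30733555, plus strand): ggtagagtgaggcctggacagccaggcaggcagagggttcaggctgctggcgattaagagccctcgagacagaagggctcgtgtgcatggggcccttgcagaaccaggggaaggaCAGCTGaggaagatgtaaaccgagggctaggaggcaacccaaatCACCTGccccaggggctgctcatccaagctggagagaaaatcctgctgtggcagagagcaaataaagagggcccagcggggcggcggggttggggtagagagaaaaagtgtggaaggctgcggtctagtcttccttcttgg

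In the Mest window CAGCTG began 135 bases and CACCTG 91 bases before the start site. The Meg3 matches began 29 and 25 bases before the start. Of all 32851 promoter windows in the table, CAGCTG was in 16.3%, CACCTG in 20.21%, any CANNTG in 72.31% and TATAAA in 13.62%. Neither the Dlk1 nor the shown Meg3 window held CANNTG. These matches describe letters and not binding.

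Scaled to length, the members differed widely. The mean over 9 libraries was 1649 CPM per kb of exon (FPKM) for H19, 56.4 for Cdkn1c, 37.8 for Peg3, 27.6 for Mest, 20.4 for Grb10, 17.9 for Meg3, 16.1 for Rian, 8.97 for Dlk1, 8.32 for Plagl1 and 2.04 for Mirg. H19 stood above Cdkn1c, Cdkn1c above Peg3 and Plagl1 above Mirg in 9 of 9 libraries. The neighbours in between changed places, for example Mest and Grb10 in 3 libraries and Dlk1 and Plagl1 in 6. H19 alone took 0.178% of the counts in old PBS 4 and 0.771% in old PBS 3, and ranked between 13 and 54 among all genes by FPKM.

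H19 was measured at 4186, 3376 and 5480 CPM in young PBS 1, 2 and 3, at 2853, 6636 and 2154 CPM in old PBS 2, 3 and 4, and at 3539, 4289 and 3988 CPM in old rMETRNL 1, 2 and 3. The highest and both lowest libraries were old PBS, and the groups overlapped. Group means were 4347 ± 1061, 3881 ± 2411 and 3939 ± 378 CPM (SD, n = 3 each). The group means thus differed by less than the SD within old PBS.

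Dlk1 was 97.6, 30.2 and 49.7 CPM in young PBS, 11.8, 35.9 and 3.97 CPM in old PBS, and 115, 75.6 and 37.2 CPM in old rMETRNL. All old rMETRNL libraries were above all old PBS libraries, though the lowest of the former was close to the highest of the latter. Against young PBS the old PBS libraries overlapped, since old PBS 3 was above young PBS 2. As a fitted fold change, Dlk1 had the greatest difference of the members in old PBS against young PBS and in old rMETRNL against old PBS. Its group means were 59.2 ± 34.7, 17.2 ± 16.6 and 75.8 ± 38.7 CPM (SD, n = 3 each).

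The RNAs downstream of Dlk1 took another order. Meg3 was 291, 244 and 289 CPM in young PBS, 141, 611 and 67.9 CPM in old PBS, and 557, 434 and 281 CPM in old rMETRNL. Rian was 306, 255 and 217 CPM in young PBS, 80.3, 483 and 48.7 CPM in old PBS, and 554, 390 and 304 CPM in old rMETRNL. Mirg was 15.1, 11.4 and 10.4 CPM in young PBS, 3.44, 35.7 and 1.83 CPM in old PBS, and 23.7, 19.8 and 12.3 CPM in old rMETRNL. In each of these RNAs old PBS 2 and 4 were the lowest 2 of the 9 libraries. Old PBS 3 was the highest library for Meg3 and Mirg, and second to old rMETRNL 1 for Rian.

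Cdkn1c, Grb10 and Plagl1 were spread in a similar way. Cdkn1c was 156, 96.6 and 107 CPM in young PBS, 64.2, 142 and 49.2 CPM in old PBS, and 177, 124 and 119 CPM in old rMETRNL. Grb10 was 166, 158 and 206 CPM in young PBS, 141, 348 and 72.1 CPM in old PBS, and 190, 210.5 and 177 CPM in old rMETRNL. Plagl1 was 76.5, 55.3 and 81.1 CPM in young PBS, 32.5, 83.4 and 9.82 CPM in old PBS, and 99.4, 90.8 and 57.1 CPM in old rMETRNL. Old PBS 4 was the lowest library for all 3 genes and old PBS 2 the next.

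Peg3 was 426, 471 and 568 CPM in young PBS, 392, 867 and 177 CPM in old PBS, and 495, 627 and 509 CPM in old rMETRNL. Mest was 115, 111 and 179 CPM in young PBS, 55.7, 116 and 17.3 CPM in old PBS, and 151, 132 and 104 CPM in old rMETRNL. Old PBS 4 and 2 were again lowest for both, while for Mest old PBS 3 lay inside the range of the other groups. Exons of Mest overlap those of Copg2 on the opposite strand, and the strand setting of the counting is not given in the sources used here, so that reads of the overlap may belong to either gene. Copg2 itself was between 30.6 and 40.1 CPM in every library.

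**Figure D1:**
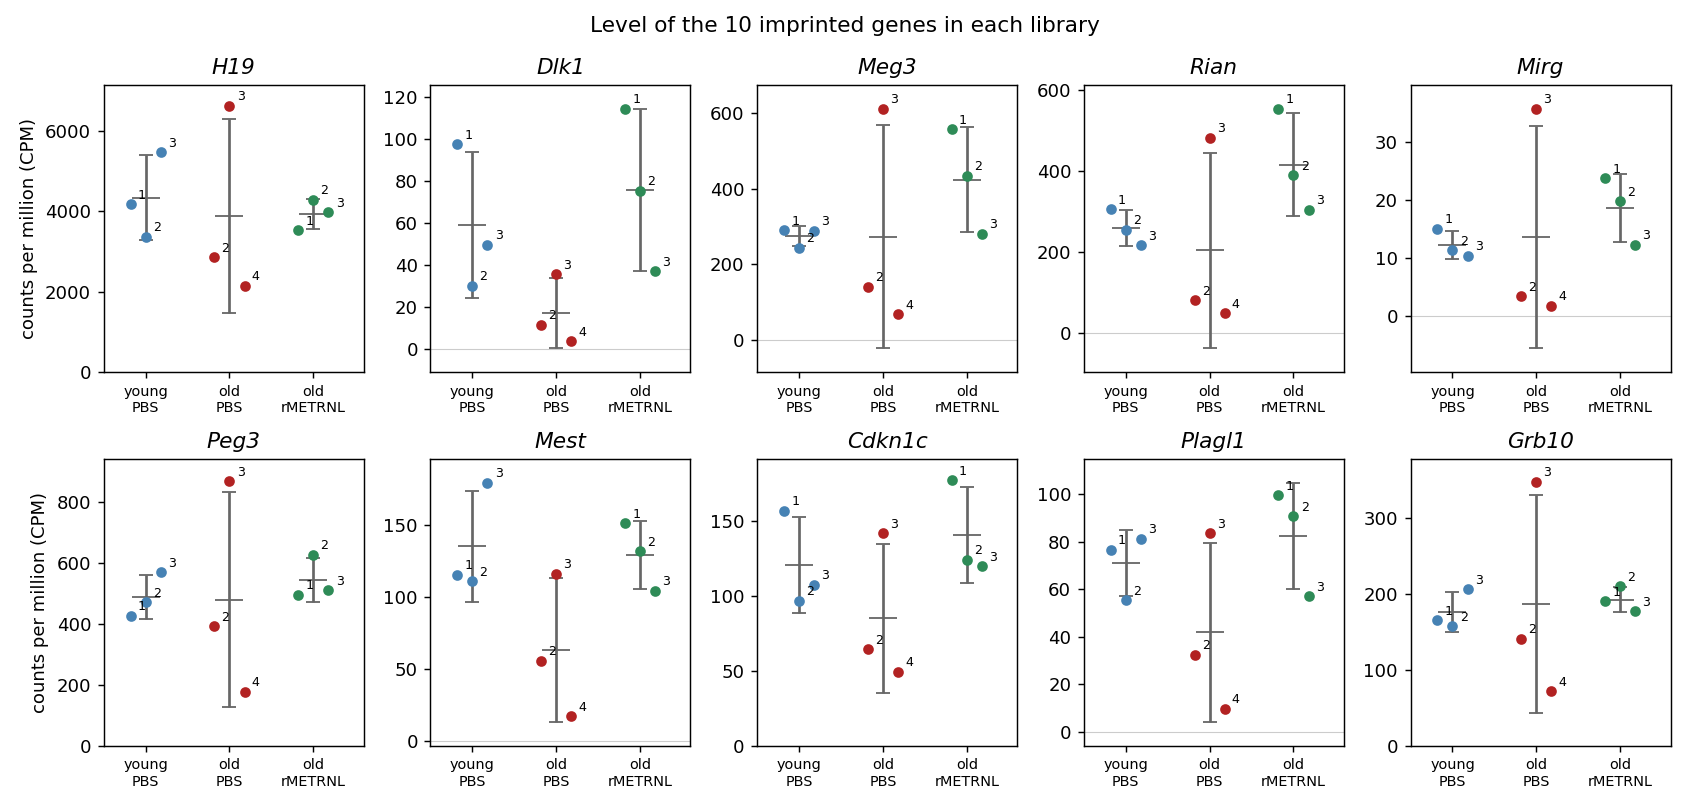
Level of each member in CPM (linear axes) in the 9 libraries, with the replicate number beside each point and the mean and SD of the group as a grey bar and whiskers, which pass below 0 where the spread exceeds the mean. For all 10 members old PBS 2 and 4 lie at the bottom, and for H19, Meg3, Mirg, Peg3 and Grb10 old PBS 3 is the highest point.

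The spread inside old PBS was wide for all members. Old PBS 3 exceeded old PBS 4 by 2.88-fold for Cdkn1c, 3.08-fold for H19, 8.99-fold for Meg3, 9.05-fold for Dlk1 and 19.5-fold for Mirg. The median of the 10 was 7.49-fold, against 1.04-fold over the 16114 other genes kept. Among those, 5.36% had a difference above that of the lowest member. Within young PBS the highest library exceeded the lowest by 1.19-fold for Meg3 to 3.23-fold for Dlk1, and within old rMETRNL by 1.19-fold for Grb10 to 3.08-fold for Dlk1.

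The first comparison sets old PBS beside young PBS, which differ in age and also in the brain and liver RNA given above. Below, the words with age name this comparison only. Between old PBS and young PBS, none of the 10 members passed the test (edgeR quasi-likelihood, Benjamini-Hochberg over 15560 genes, threshold 0.05), where 10 genes or 0.0643% of all genes did. At an unadjusted p under 0.05 there was 1 member, Dlk1, against 5.91% of all genes, and DESeq2 called 0 members against 1.42% of all genes. For no member did all old PBS libraries lie below all young ones, as they did for 5.25% of all genes. The log2 fold change was below 0 for 8 of 10 members, with a median of -0.26 against 0.014 for all genes.

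Dlk1 had a log2 fold change of -1.77 (SE 0.71), 3.41-fold lower in old PBS, with an adjusted p of 0.77 by edgeR. Mest followed with -1.10 (SE 0.56), Plagl1 with -0.76 (SE 0.60) and Cdkn1c with -0.50 (SE 0.38). The values of H19, Meg3, Peg3 and Grb10 lay between -0.17 and 0.08. Those of Rian and Mirg were -0.35 and 0.17, with SEs of 0.73 and 0.89. DESeq2 gave no p for Mirg here.

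This picture turned on 1 library. Without old PBS 3, all 10 members were lower in old PBS at an unadjusted p under 0.05, where 10.3% of all genes were. Of the 10 members 3 passed the edgeR test with adjustment, where 0.705% of all genes were called lower. These were Rian with a log2 fold change of -2.01 (SE 0.26, adjusted p = 0.013), Mirg with -2.23 (SE 0.33, adjusted p = 0.019) and Dlk1 with -2.92 (SE 0.59, adjusted p = 0.045). The median of the members moved to -1.57. With old PBS 3 kept and any other library left out, no member passed.

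The second comparison sets old rMETRNL beside old PBS, which differ in treatment and also in that brain and liver RNA. Between old rMETRNL and old PBS, 0 of 10 members passed the edgeR test, where 17 of 15682 genes or 0.108% did. Again Dlk1 was the 1 member at an unadjusted p under 0.05, against 8.07% of all genes, and DESeq2 called 0 members against 1.78% of all genes, with 2 members at an unadjusted p under 0.05. The log2 fold change was above 0 for 10 of 10 members, with a median of 0.67 against -0.006 for all genes. Since the members moved together across libraries, these 10 signs are not 10 independent observations, and old PBS is shared with the first comparison.

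Dlk1 was 4.35-fold higher with rMETRNL, a log2 fold change of 2.12 (SE 0.69) and an adjusted p of 0.42. It was the only member whose libraries did not overlap, as 6.95% of all genes did not in this direction. Mest and Rian had log2 fold changes of 1.03 and 1.02 (SE 0.54 and 0.73), Plagl1 of 0.97 (SE 0.60), Cdkn1c of 0.72 (SE 0.37) and Meg3 of 0.63 (SE 0.68). H19 and Grb10 had 0.02 and 0.04 (SE 0.42 and 0.47), with Peg3 at 0.18 and Mirg at 0.42.

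Here too old PBS 3 decided the count. Without it all 10 members were higher with rMETRNL at an unadjusted p under 0.05, against 13.5% of all genes. With adjustment 7 of 10 were called higher by edgeR, against 3.78% of all genes. Rian was 6.45-fold higher (adjusted p = 0.0020), Mirg 7.08-fold (adjusted p = 0.0033) and Dlk1 9.65-fold (adjusted p = 0.0080). Cdkn1c, Meg3, Plagl1 and Mest passed with 2.47-fold to 4.05-fold differences. H19, Peg3 and Grb10 did not, at 1.57-fold, 1.91-fold and 1.81-fold. As above, leaving out old PBS 3 set the direction, and these p-values do not test rMETRNL. The 2 old PBS libraries kept also had the highest brain sums, 206 and 226 CPM. No member passed when another library was left out.

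The third comparison sets treated old muscle beside young muscle. Between old rMETRNL and young PBS, 0 of 15396 genes passed the edgeR test and 0 by DESeq2 (0% each), so none of the members did. At an unadjusted p under 0.05 there were 371 genes or 2.41%, among them 3 members. These were the chromosome 12 RNAs. Rian had a log2 fold change of 0.68 (SE 0.20), Meg3 of 0.63 (SE 0.21) and Mirg of 0.59 (SE 0.23), each with an adjusted p of 0.9996. In each of them old rMETRNL 3 lay within the range of the young libraries. No member was higher in all 3 treated libraries than in all young ones, as 3.92% of all genes were. The other 7 members had log2 fold changes between -0.14 for H19 and 0.36 for Dlk1.

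**Figure D2:**
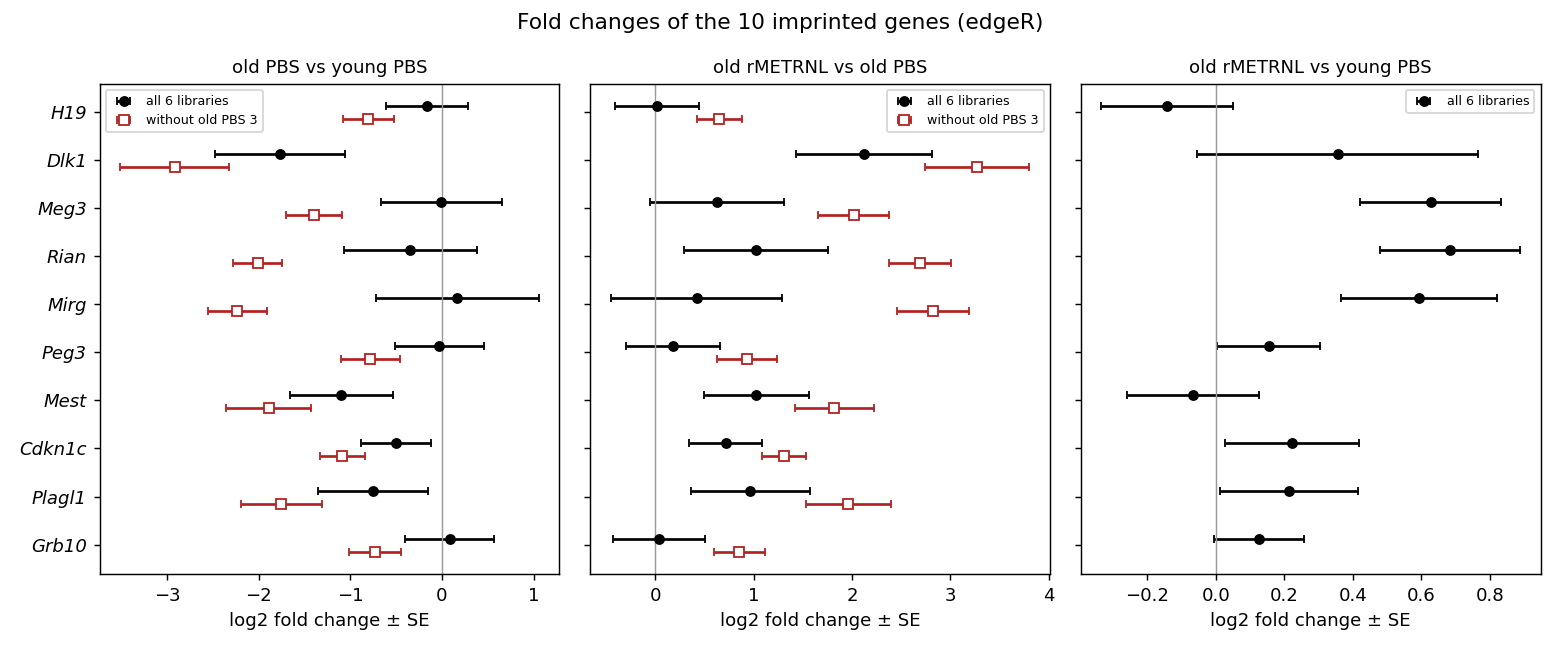
Log2 fold change of each member with its SE (edgeR) in the 3 comparisons, from all 6 libraries (filled circles) and without old PBS 3 (open squares, for the comparisons that use it). Without old PBS 3 all members shift below 0 in old PBS against young PBS, with a median of -1.57, and above 0 with rMETRNL, with a median of 1.89.

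Among the members, the neighbours Dlk1 and Meg3 differed in how they moved, which was seen in the values first and then measured. The ratio of Dlk1 to Meg3 counts was 0.336, 0.124 and 0.172 in young PBS, 0.0834, 0.0587 and 0.0584 in old PBS, and 0.205, 0.174 and 0.132 in old rMETRNL. The old PBS libraries were the 3 lowest of the 9 and close to each other, old PBS 3 included. Against young PBS the ratio was 2.92-fold lower in old PBS, and it was 2.55-fold higher with rMETRNL than without, and both differences use the same old PBS libraries. An exact two-sided permutation test gave p = 0.10 for each, the smallest that 3 against 3 allows. Since the ratio was picked with these values in view, this p describes the separation and does not test it. The ratio of old rMETRNL to young PBS was 1.15-fold lower (exact permutation p = 0.90).

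For comparison, the ratio to Meg3 lay below all young libraries in every old PBS library for 0.129% of all genes, and higher in every treated than in every old PBS library for 0.0701% (0.5 added to the counts). These shares depend on the spread of Meg3 itself, and they too describe a ratio picked from these values. With any 1 library left out, the log2 difference of the ratio stayed between -1.87 and -1.15 for age and between 1.20 and 1.52 for rMETRNL.

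The RNAs of the maternal copy kept nearer to each other in young PBS and old rMETRNL, but within old PBS Mirg did not. The SD of the log2 ratio in old PBS was 0.69 for Mirg to Meg3 and 0.29 for Dlk1 to Meg3. Rian to Meg3 was 1.05, 1.04 and 0.749 in young PBS, 0.568, 0.790 and 0.716 in old PBS, and 0.993, 0.899 and 1.08 in old rMETRNL. This ratio was higher in all treated than in all old PBS libraries, by 1.44-fold (exact permutation p = 0.10). Mirg to Meg3 was 0.0361 to 0.0519 in young PBS, 0.0243 to 0.0584 in old PBS and 0.0426 to 0.0455 in old rMETRNL, with overlap in each comparison.

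H19 was also set against Igf2, which shares its imprinting control region and is read from the other parental copy. Igf2 was low, at 4.66 CPM in old PBS 4 to 30.4 CPM in old PBS 3. There were 173 to 309 counts of H19 per count of Igf2 in young PBS, 218 to 462 in old PBS and 185 to 293 in old rMETRNL. These ranges overlapped.

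**Figure D3:**
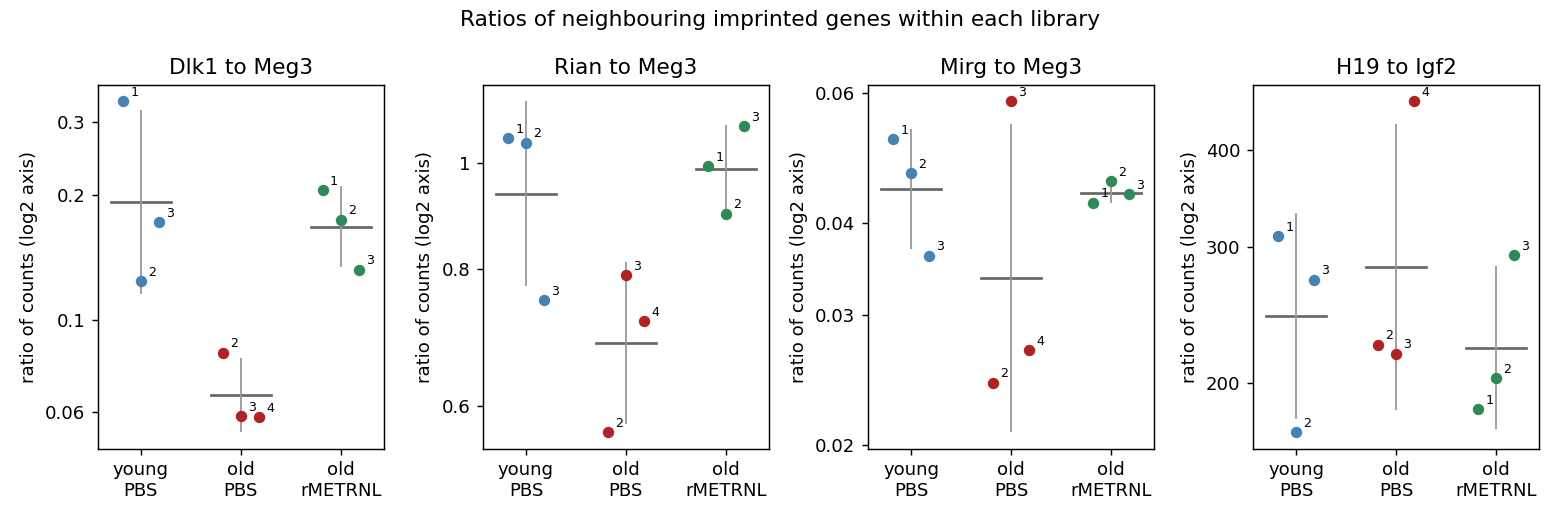
Ratios of counts within each library on log2 axes, with the replicate number beside each point, the mean of the log2 ratios as a grey line and their SD as a vertical line. Dlk1 to Meg3 is at most 0.0834 in the 3 old PBS libraries and at least 0.124 in the other 6, while H19 to Igf2 overlaps between all groups.

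The members were next compared with fibre renewal. A new-fibre score was the mean log2 CPM of 10 genes of young fibres and their fusion, without any member. Myh3 and Myh8, the embryonic and neonatal myosins, ranged from 55.5 to 1258 and from 123 to 1763 CPM over the 9 libraries. Actc1 (335 to 1330 CPM), Myl4 (93.7 to 382 CPM) and Tnnt2 (34.1 to 154 CPM) code for other parts of the immature sarcomere. Chrna1 (41.9 to 158 CPM) and Chrng (4.47 to 30.1 CPM) code for acetylcholine receptor subunits. Myog ranged from 17.1 to 96.9 CPM, and the fusion genes Mymk and Mymx from 10.01 to 52.3 and 2.39 to 12 CPM. For each of the 10 genes old PBS 4 was the lowest library, old PBS 3 the highest, or both.

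The score was 6.07, 6.33 and 6.47 in young PBS, 5.96, 7.52 and 4.95 in old PBS, and 5.76, 6.63 and 6.31 in old rMETRNL. Over the 9 libraries Pearson's r with the score was above 0 for 10 of 10 members, with a median of 0.72 against 0.05 over all genes. As the list was chosen with earlier results known, this contrast is a description. In an exact permutation test 5 members had p under 0.05, where 12.1% of all genes did with r above 0. After Benjamini-Hochberg adjustment over 16114 genes no member passed, where 6 genes or 0.0372% did with r above 0.

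Peg3 had r = 0.93 (exact permutation p = 0.0012, adjusted p = 0.090) and Spearman's rho = 0.87 (exact permutation p = 0.0045). Grb10 had r = 0.93 (exact permutation p = 0.0038, adjusted p = 0.095) and rho = 0.78 (exact permutation p = 0.017). H19 had r = 0.90 (exact permutation p = 0.0021, adjusted p = 0.091) and rho = 0.83 (exact permutation p = 0.0083). These 3 are the members that tracked the score in rank as well as in value. Mirg (r = 0.76, rho = 0.48) and Meg3 (r = 0.75, rho = 0.53) had exact permutation p-values of 0.018 and 0.028 for r, and 0.19 and 0.15 for rho. Dlk1 had r = 0.47 (rho = 0.15) and Cdkn1c r = 0.54 (rho = 0.23), the lowest of the members.

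The relation rested on old PBS 3 and old PBS 4, the libraries farthest from the median score. Without them r was 0.72 for Peg3, 0.60 for H19 and 0.50 for Grb10, between 0.04 and 0.32 for Meg3, Rian, Mirg, Mest and Plagl1, and -0.013 and -0.16 for Dlk1 and Cdkn1c, and no member had an exact permutation p under 0.05. In the 6 libraries outside old PBS, r was above 0 for H19, Peg3 and Grb10, and below 0 for the other 7, from -0.011 for Mest to -0.78 for Cdkn1c. Old rMETRNL 1 had the lowest score outside old PBS and the highest Dlk1, Rian, Cdkn1c and Plagl1 of all libraries. Without that library 7 members passed the adjusted test, where 6.01% of all genes did with r above 0.

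**Figure D4:**
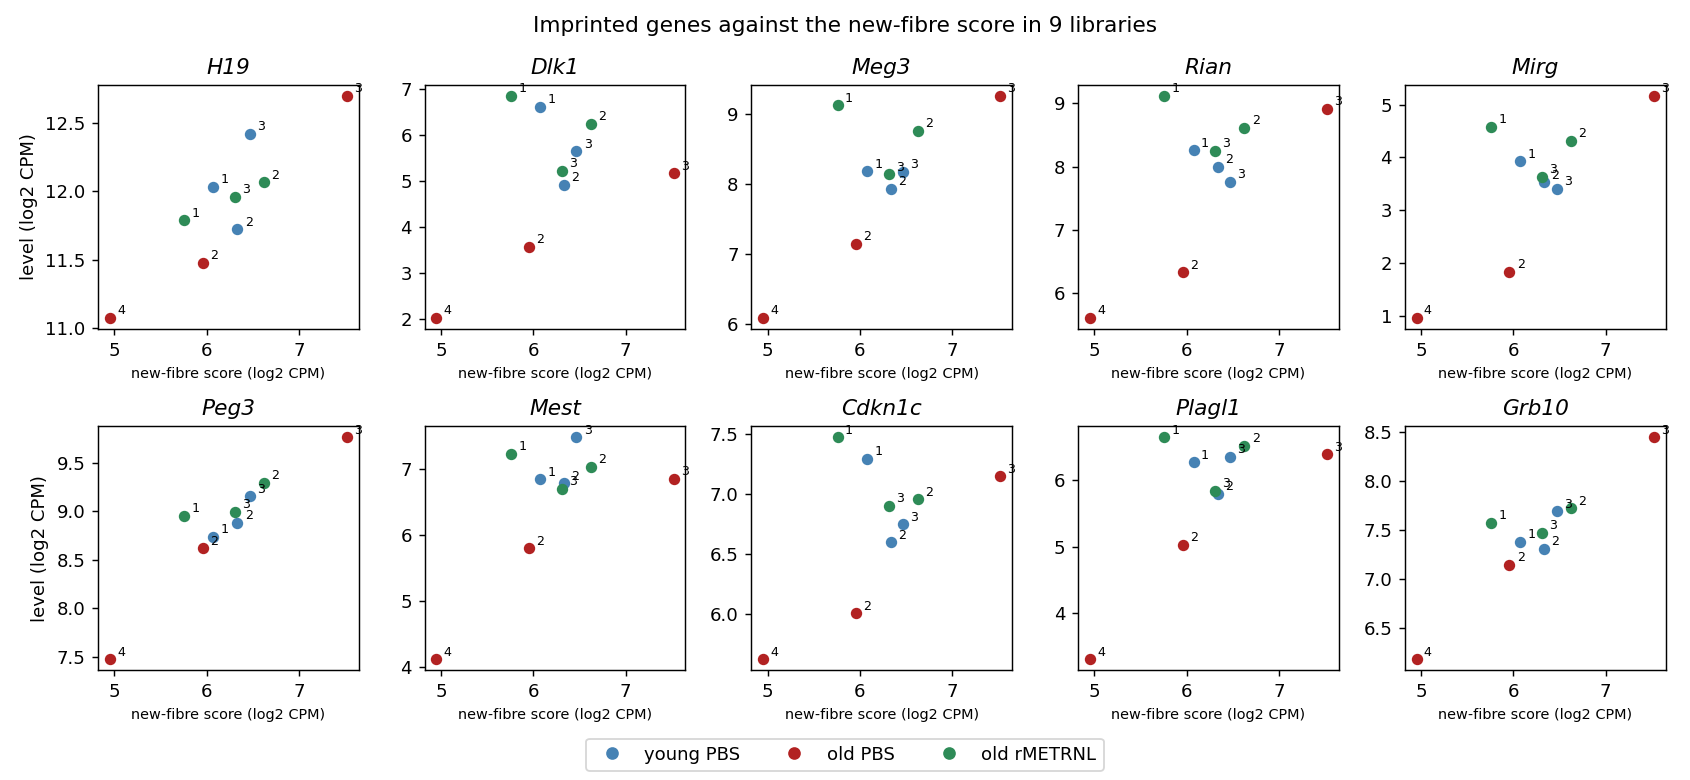
Level of each member (log2 CPM) against the new-fibre score (mean log2 CPM of 10 genes) in the 9 libraries, coloured by group and numbered by replicate. Peg3, Grb10 and H19 rise along the score with r of 0.90 or more, a slope carried by old PBS 4 at 4.95 and old PBS 3 at 7.52, while for Dlk1 and Cdkn1c the 6 libraries outside old PBS slope downwards.

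The members moved with each other. Across 45 pairs of members, Pearson's r of log2 CPM over 9 libraries was 0.64 to 0.99 with a median of 0.88, whereas pairs of 3000 genes drawn from all kept genes had a median of 0.0015. These points share libraries, and the pair values are a description. In the 6 libraries outside old PBS the median was 0.48 and 39 of 45 pairs were above 0. Meg3, Rian and Mirg stayed between 0.91 and 0.96 with each other there, and Dlk1 and Meg3 had r = 0.76. H19 and Meg3 went from 0.81 over 9 libraries to -0.16 over these 6.

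The genes most like each member, by the highest r over 9 libraries, differed between members. For Mest they were Mcm6, a helicase subunit of DNA replication (r = 0.99), Uhrf1, which passes on DNA methylation, and Capza1. For Plagl1 they were E2f2, a cell cycle transcription factor (r = 0.99), Tcaf2 and Uhrf1. Dlk1 was most like Sox18 and Elk3, transcription factors known from endothelium (r = 0.98 each), and C130074G19Rik. Rian and Mirg were most like the tubulin gene Tuba1a (r = 0.99 each), then Cd53 and Mirg for Rian, and Rian and Atp1b4 for Mirg.

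Meg3 was most like Mirg, Thsd1 and Rbms1 (r = 0.98 each). Peg3 was most like Enah, a regulator of actin, Tmem131l and Ppef2 (r = 0.99 each). Grb10 was most like Nras, Wdr1 and Peg3 (r = 0.985 to 0.995), H19 most like Gm47572, Prpsap1 and Acsf2 (r = 0.98 to 0.99), and Cdkn1c most like Fhl2, Vstm4 and Traf7 (r = 0.97 to 0.98). Other members thus stood among the nearest genes of Meg3, Rian, Mirg and Grb10.

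Other imprinted genes were spread around 0. Among 49 other imprinted genes, 42 were tested between old PBS and young PBS, with 20 higher and 22 lower and a median log2 fold change of -0.03. Between old rMETRNL and old PBS 21 of 43 were higher, with a median of -0.02, and between old rMETRNL and young PBS 15 of 40 were higher, with a median of -0.06. edgeR called none of them in any comparison, with 3, 4 and 0 at an unadjusted p under 0.05. DESeq2 called Kcnk9, Rasgrf1 and Nap1l5 higher in old PBS than in young PBS and lower in old rMETRNL than in old PBS. It called none between old rMETRNL and young PBS.

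These genes are known from brain. Rasgrf1 had 80, 28 and 85 counts in old PBS 2, 3 and 4 and 0 to 4 counts in every other library. Kcnk9 had 19 or 20 counts in each old PBS library and at most 1 elsewhere. Nap1l5 had 94, 18 and 129 counts in old PBS and 4 to 17 elsewhere. Scaled to library size, Nap1l5 in old PBS 3 lay below young PBS 2 (0.788 against 0.944 CPM), so that it was high in old PBS 2 and 4 alone.

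The lower and higher genes of lowest p beside these did not pass either test. Dio3, the far neighbour of the Dlk1 genes, had a log2 fold change of -0.84 (SE 0.42) in old PBS against young PBS, with H13 at -0.17 and Peg12 at -0.53. With rMETRNL against old PBS, Peg12 was at 0.86 (SE 0.43), H13 at 0.22 and Sgce at 0.27. Between old rMETRNL and young PBS, Airn, Slc22a3 and Ndn were at 0.26, 0.66 and 0.33 and Copg2, Asb4 and Tssc4 at -0.18, -0.51 and -0.19. Each of these differences is on the log2 scale.

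Against the new-fibre score, 43 of the other imprinted genes had a median r of 0.04, and 22 of them were above 0. That median hides a spread in both directions. At an unadjusted exact permutation p under 0.05, 13 of the 43 had r above 0, where 12.1% of all genes did, and 8 of the 43 had r below 0, where 13.5% of all genes did. Zdbf2 had r = 0.94, Usp29 r = 0.92 and Igf2 r = 0.88, while Qpct had r = -0.83, Commd1 r = -0.80 and Blcap r = -0.79. None of the 43 passed after adjustment, and all 10 members had r above 0. Rtl1, a paternal gene between Meg3 and Rian, was 1.08, 13.5 and 0.441 CPM in old PBS 2, 3 and 4, against 3.49 to 7.70 CPM elsewhere.

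The partners of the members in growth control were fixed as 25 genes, among them the IGF and insulin receptors and their substrates, Notch receptors, cyclins and Cdk genes, and the DNA methylation machinery. edgeR and DESeq2 called none of the 25 in any comparison, with 1, 3 and 0 genes at an unadjusted edgeR p under 0.05. In old PBS against young PBS 18 of 25 were lower, with a median log2 fold change of -0.31. In old rMETRNL against old PBS 19 of 25 were higher, with a median of 0.30, and in old rMETRNL against young PBS 14 were higher, with a median of 0.03.

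E2f1, which drives entry into DNA synthesis, had log2 fold changes of -0.63 (SE 0.26) with age and 0.96 (SE 0.29) with rMETRNL. Cdk4, the kinase that acts before it, had -0.31 (SE 0.15) and 0.47 (SE 0.17). Dnmt3a was at -0.56 with age and Irs1 at 0.69 with rMETRNL. On the other side, Rb1, Insr and Siah1a were at 0.20, 0.19 and 0.15 with age, and Insr, Rb1 and Irs2 at -0.29, -0.24 and -0.23 with rMETRNL. Between old rMETRNL and young PBS, Dnmt3b, Igf1 and E2f1 were at 0.49, 0.27 and 0.34, and Insr, Notch3 and Irs2 at -0.10, -0.11 and -0.14.

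Lists of other cells moved beside the members, and their part in the members' values was not tested. Of the 6 genes of dividing cells, 6 had a log2 fold change below 0 with age, with a median of -0.72, and 6 above 0 with rMETRNL, with a median of 0.82. The 8 macrophage genes had medians of -0.37 and 0.45, the 6 endothelial genes -0.36 and 0.41, and the 8 genes of satellite cells and myoblasts -0.21 and 0.23. The new-fibre genes went the other way, at 0.42 and -0.50, where without old PBS 3 they were at -0.70 and 0.61. None of these genes passed the edgeR or the DESeq2 test with all 6 libraries. Without old PBS 3 the medians were -1.16 and 1.24 for dividing cells and -0.66 and 0.74 for satellite cells and myoblasts. They were -0.62 and 0.71 for macrophages and -0.52 and 0.57 for endothelium. In that fit edgeR called 2 new-fibre, 2 satellite cell and 1 macrophage gene lower with age, against 0.705% of all genes. With rMETRNL it called 3 genes of each of these lists and 1 of dividing cells higher, against 3.78% of all genes.

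Mature fibre genes had medians of 0.05 and -0.16, adipocyte genes 0.57 and -0.14, Schwann cell and nerve genes 0.20 and -0.09, fibro-adipogenic genes -0.10 and 0.49, and tendon genes -1.06 and 0.72, in the same order of comparisons. DESeq2 called 3 tendon genes lower in old PBS and 3 higher with rMETRNL, 1 fibro-adipogenic gene higher with rMETRNL, and 1 nerve gene higher in old PBS and lower with rMETRNL. Brain markers had medians of 6.2 and -6.73, with 3 of 10 called higher in old PBS and 4 of 10 lower with rMETRNL by edgeR, and liver markers 8.39 and -8.12, with 1 of 5 and 2 of 6 called. These fitted folds are set against groups at or near 0 and are no measure of size. The brain sum was 206 and 226 CPM in old PBS 2 and 4, where the members were lowest. It was 65.2 CPM in old PBS 3, where 5 of the 10 were highest. Aqp4, which all groups held, gave 50.6, 9.49 and 54.3 CPM of these sums in old PBS 2, 3 and 4. The liver sum took another order, at 86.3, 35.4 and 13.3 CPM in old PBS 2, 3 and 4. The part of these RNAs in the members' values was not tested.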

How the data were processed

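RNA of 9 libraries in 3 groups of 3 was analysed. The authors deposited raw counts of reads per Ensembl gene, with libraries kept apart and no normalization. The submitters' processing notes name STAR, featureCounts and mm9, without roles, and the study's methods name the NEBNext Ultra kit, paired-end sequencing and DESeq2. All columns were used, and 54409 of the 54532 identifiers matched GENCODE annotation of GRCm38, which gave symbols, positions and exon lengths.

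Groups were compared in pairs on 6 libraries with edgeR 4.0.16 in R 4.3.3 (filterByExpr, TMM, glmQLFit, glmQLFTest, Benjamini-Hochberg over all genes, threshold 0.05), and DESeq2 1.42.0 was the alternative. Each SE is the size of the log2 fold change over the square root of F. CPM used TMM factors of all 9 libraries, and log2 CPM a prior count of 2. Correlations used exact permutation of the libraries, two-sided. The steps were tested on simulated data. Named genes were all members, up to 3 higher and 3 lower genes of lowest p per list of imprinted genes and partners, the 3 genes most like each member, and all new-fibre genes; others named, such as Zdbf2, Qpct, Rtl1 and Mobp, were picked with their values in view. The members and lists were chosen with earlier results of these data known. Alternatives were DESeq2's size factors and test, other filters, all 9 libraries in 1 fit, a replicate block, each library left out, and other forms of the score.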

Additional observations from a re-analysis of the deposited data

How the results depend on the processing

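The counts of called genes depended on the settings. For old PBS against young PBS, the 10 genes called became 265 with DESeq2, 354 without a filter on low counts, 3 with at least 10 counts in every library and 63 with all 9 libraries in 1 fit, and 2 to 401 with 1 library left out. For old rMETRNL against old PBS, the 17 became 354, 740, 1 and 71 in the same order, and 3 to 1560 with 1 library left out. For old rMETRNL against young PBS, the 0 became 132 without a filter, and 0 to 1 with 1 library left out. Without a filter edgeR called 1 member (Dlk1), 4 members (Dlk1, Rian, Mest and Plagl1) and 2 members (Meg3 and Rian) in the 3 comparisons. In these fits 354, 740 and 132 genes were called in all. Their shares of the genes tested were not computed, so these counts of members are not read as a result. With 1 library left out, 0 to 3, 0 to 7 and 0 members were called. The members correlated with the new-fibre score after adjustment, 0 over 9 libraries, were 0 to 7. The cause of these shifts was not tested.

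The deviations of same-numbered libraries correlated between -0.32 and 0.41. Differently numbered libraries were not set beside them, so that pairing by replicate number could not be decided. With the replicate number as a block, where shared numbers leave 4 informative libraries in comparisons with old PBS, 11, 65 and 0 genes and no member were called. Under the block the log2 fold changes of H19, Meg3 and Peg3 turned to 0.016, 0.15 and 0.17 with age, and those of H19, Peg3 and Grb10 to -0.080, -0.053 and -0.21 with rMETRNL against old PBS. Meg3 was at 0.0054 with age under the filter of 10 counts.

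With 1 library left out, signs with age turned for H19 (-0.80 to 0.13), Meg3 (-1.40 to 0.45), Rian (-2.01 to 0.12), Mirg (-2.23 to 0.68), Peg3 (-0.78 to 0.37) and Grb10 (-0.73 to 0.47). With rMETRNL against old PBS they turned for H19 (-0.28 to 0.65), Mirg (-0.11 to 2.82), Peg3 (-0.23 to 0.93) and Grb10 (-0.36 to 0.85), and against young PBS for H19 (-0.30 to 0.059), Dlk1 (-0.072 to 0.92) and Mest (-0.19 to 0.19). For r with the score, that of Dlk1 was -0.12 to 0.65. Without the 2 libraries farthest from the median, Dlk1 and Cdkn1c were at -0.013 and -0.16. In the 6 libraries outside old PBS, r was -0.54 for Dlk1, -0.41 for Meg3, -0.58 for Rian, -0.47 for Mirg, -0.011 for Mest, -0.78 for Cdkn1c and -0.26 for Plagl1. Of 20 recomputed ranks by level per length, 18 were unchanged or moved by less than the SD of that gene's ranks across libraries. With the length of the longest transcript Rian ranked 6 and Plagl1 8, which put them above Meg3 and Dlk1.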
